A study of Mus musculus with 12 samples.

Results

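Gm-number genes are mouse genes that carry only a serial name, Gm followed by digits, given to predicted genes for which no functional name had been agreed. On the Agilent mouse array used here, 1250 gene names matched this rule, measured by 1497 of the 55681 non-control probes; they were taken as every name of that exact form, with no use of the measured values. The array held 36406 gene names in all. RNA was profiled from mouse embryonic stem cells in 3 groups of 4 samples, which the labels call independent biological samples. WT cells are labelled wild type, and Id1KO cells are labelled as a knockout of Id1, which encodes an inhibitor of basic helix-loop-helix transcription factors. Id1KO_Zrf1KD cells were the knockout line after lentiviral short-hairpin knockdown of Zrf1 (Dnajc2), a ribosome-associated co-chaperone that is also a chromatin factor, with puromycin selection. All 3 groups grew in GMEM with serum and LIF. As far as the labels say, each genotype is a single line, and a knockout sample with a control hairpin was not analysed here, so effects of the hairpin vector and of selection cannot be told apart from those of losing Zrf1.

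The name says nothing of function, and the genes behind it are mixed. Many belong to tandem families that arose by local duplication, such as the eIF1A-like and PRAME-like families, which in the mouse embryo are transcribed around the 2-cell stage when the zygotic genome is switched on, and the KRAB zinc finger families, many of whose proteins silence transposable elements. Others are processed pseudogenes, copies of messenger RNAs of highly expressed genes such as those for ribosomal proteins, or long non-coding RNAs. On the X chromosome several are members of amplified families otherwise known from the male germ line.

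By the description on the array, 422 of the 1250 genes had a curated mRNA record, 222 a predicted mRNA, 191 a non-coding RNA, 69 a pseudogene, 107 only an Ensembl transcript and 261 another transcript or cDNA. RefSeq held 1022 of them, and 305 now have another symbol there, for example Pramel19 for Gm12794 and Rex2 for Gm13138. Of the matched genes, 511 are protein-coding, 227 lncRNA and 194 pseudogenes in RefSeq. The probes lay most often on chromosome X, with 112 genes, followed by chromosomes 7, 4 and 14 with 93, 89 and 88.

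A probe was tested if its signal was well above background on all 4 arrays of at least 1 group. This left 635 Gm-number genes, or 50.8%, against 62.1% of all names. Of the others, 438 were well above background on no array and 177 on some arrays but not on all 4 of any group. Values are levels on the log2 scale relative to the 75th percentile of the array, so that 0 is the level of the probe at that percentile, and a difference of 1 is a doubling. They rank a gene across samples and do not compare one gene with another.

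The arrays read short sequences, and in families of near-identical genes these limit what a name can mean. The probes that the main results turn on are therefore shown, as 60 bases each with mm9 coordinates and strand, and with the run that both probes of a pair share in capitals; positions in exons or untranslated regions were not analysed here. In the eIF1A-like family of chromosome 12, the probes of Gm2016 (chr12:89115318-89115377, plus strand) and Gm5039 (chr12:89559634-89559693, minus strand) share only 7 bases, so they read separate stretches. These bases end the probe of Gm5039 and start that of Gm2016. Whether each probe also reads RNA of other family members was not tested.
Gm2016: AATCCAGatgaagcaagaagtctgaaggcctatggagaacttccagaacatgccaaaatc
Gm5039: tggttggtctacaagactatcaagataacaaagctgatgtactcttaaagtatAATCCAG

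The zinc finger genes Gm14326 (chr2:177680655-177680714, minus strand) and Gm14431 (chr2:175208144-175208203, plus strand) share an unbroken run of 18 bases, which encode the conserved linker between neighbouring fingers. The bases just before the run are also nearly the same, so the probes are more alike than the run alone shows. Their values may therefore not be separate observations.
Gm14326: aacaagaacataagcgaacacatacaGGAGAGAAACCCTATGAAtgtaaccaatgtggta
Gm14431: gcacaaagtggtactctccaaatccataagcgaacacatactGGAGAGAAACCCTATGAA

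The probe of Gm3167 (chr6:47765406-47765465, minus strand), now Rpl35a-ps7, shares 44 bases with that of Rpl35a (chr16:33058766-33058825, plus strand), the gene of a large-subunit ribosomal protein. Gm6109 (chr13:94218656-94218715, plus strand) shares 49 bases with Rpl30 (chr15:34371013-34371072, minus strand). With such runs the signal of either probe may hold RNA of both genes, so that values of the pseudogene are uncertain.
Gm3167: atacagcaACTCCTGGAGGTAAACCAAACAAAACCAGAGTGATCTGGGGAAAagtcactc
Rpl35a: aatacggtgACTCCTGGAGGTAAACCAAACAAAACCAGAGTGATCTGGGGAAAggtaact
Gm6109: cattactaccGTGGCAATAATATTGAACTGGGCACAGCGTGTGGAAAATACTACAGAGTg
Rpl30: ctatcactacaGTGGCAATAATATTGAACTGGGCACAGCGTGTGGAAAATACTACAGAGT

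On the X chromosome, Gm2012 (chrX:25628517-25628576, minus strand) and Gm5168 (chrX:25455842-25455901, minus strand) share an unbroken run of 18 bases and are nearly the same on both sides of it. Each also shares 34 bases with the probe of Slx, an X-linked gene known from spermatids, so their values may not be separate observations. The probe of Gm5639 (chrX:70553062-70553119, plus strand) shares 46 bases with that of Gm5640, shown in capitals.
Gm2012: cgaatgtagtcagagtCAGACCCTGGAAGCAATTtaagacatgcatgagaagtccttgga
Gm5168: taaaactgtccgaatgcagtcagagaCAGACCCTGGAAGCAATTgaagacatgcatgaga
Gm5639: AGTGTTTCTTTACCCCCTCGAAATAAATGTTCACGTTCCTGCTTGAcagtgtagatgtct

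The labels were checked on the targeted genes. The mean level of Dnajc2 was 1.89 ± 0.11 in Id1KO (SD, n = 4), beside 2 ± 0.12 in WT, and it was -0.27 ± 0.08 after knockdown, 4.47-fold lower (limma adjusted p = 9.7e-10). Id1 did not fall in the samples labelled Id1KO, where its mean was 1.23 ± 0.31 against 0.86 ± 0.20 in WT (adjusted p = 0.052); whether its probe lies in the deleted part was not analysed here, so the knockout rests on the label. All 10 pluripotency markers examined were well above background in every group; 3 were higher and 5 lower in Id1KO than in WT, and 6 higher and 3 lower in Id1KO_Zrf1KD than in Id1KO. Of 13 tested fibroblast markers, Lum was well above background on no array of WT or Id1KO, and the summed level of the list was highest in Id1KO_Zrf1KD, at 140 to 144 in units of the 75th percentile, against 48.4 to 50 for WT and 38.3 to 39.9 for Id1KO. Of these 13 genes, 2 were higher and 8 lower in Id1KO than in WT, and 13 higher and 0 lower in Id1KO_Zrf1KD than in Id1KO; the part of other cell types in the results for Gm-number genes was not tested. The 75th percentile of the processed signal was lowest on the Id1KO arrays, at 393 to 492, with WT at 441 to 550 and Id1KO_Zrf1KD at 554 to 596.

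Gm-number genes were, on balance, higher in Id1KO than in WT and lower again after knockdown, which stands here for Id1KO_Zrf1KD against Id1KO. The median level of the 635 genes was -0.96, -0.99, -1.02 and -0.91 on the 4 WT arrays. It was -0.63, -0.46, -0.70 and -0.53 on the Id1KO arrays and -0.86, -0.83, -0.90 and -0.88 on the Id1KO_Zrf1KD arrays. The Id1KO values lay above all others, and those of Id1KO_Zrf1KD lay between them and WT without overlap.

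In Id1KO against WT, 376 of the 635 genes were higher and 95 lower at an adjusted p under 0.05. Over all 22590 features, 42.5% were higher and 29.6% lower, so that the shares of Gm-number genes were 59.2% and 15%. With the change also at least 2-fold, 123 were higher and 39 lower, beside 12.2% and 7.46% of all features. The median log2 fold change was 0.50, against 0.15 over all features, -0.04 over the 13823 tested genes with another RefSeq symbol and 0.25 over the 1004 tested RIKEN genes. Features with no RefSeq symbol had a median of 0.46, close to that of the Gm-number genes. The size of the shift depends on the scaling: the median of all features moved from 0.15 to 0.02 with quantile normalization and to 0.01 in the deposited values. With quantile normalization 298 Gm-number genes (46.9%) were higher and 132 (20.8%) lower, beside 35.2% and 34.7% of all features. In the deposited values 303 (47.7%) were higher and 138 (21.7%) lower, beside 35% and 34.3% of all features. The medians of Gm-number genes were then 0.25 and 0.17.

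In Id1KO_Zrf1KD against Id1KO, 117 genes were higher and 336 lower, or 18.4% and 52.9%, where 32.3% and 39.8% of all features were. With the 2-fold limit, 38 were higher and 133 lower, beside 7.16% and 13.2%. The median was -0.41, against -0.09 over all features, 0.11 over genes with another symbol and -0.24 over RIKEN genes. Features with no RefSeq symbol fell further, with a median of -0.54, 12.2% higher and 57% lower. With quantile normalization 167 Gm-number genes (26.3%) were higher and 269 (42.4%) lower, beside 35.6% and 34% of all features. In the deposited values 165 (26%) were higher and 268 (42.2%) lower, beside 35.4% and 33.6% of all features. The medians of Gm-number genes were then -0.17 and -0.10. In Id1KO_Zrf1KD against WT, 187 were higher and 198 lower, where 32.4% and 32.2% of all features were, and both medians were -0.02. Past 2-fold, 81 were higher and 83 lower, beside 9.03% and 8.87%. For the statements on overlap of single genes, the values of the 2 groups did not overlap for 65.9% of all features in Id1KO against WT, 67.1% after knockdown and 60.9% in Id1KO_Zrf1KD against WT. The comparisons share samples: Id1KO enters the first as the treated and the second as the control group, so opposite signs in them are not independent measurements.

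**Figure D1:**
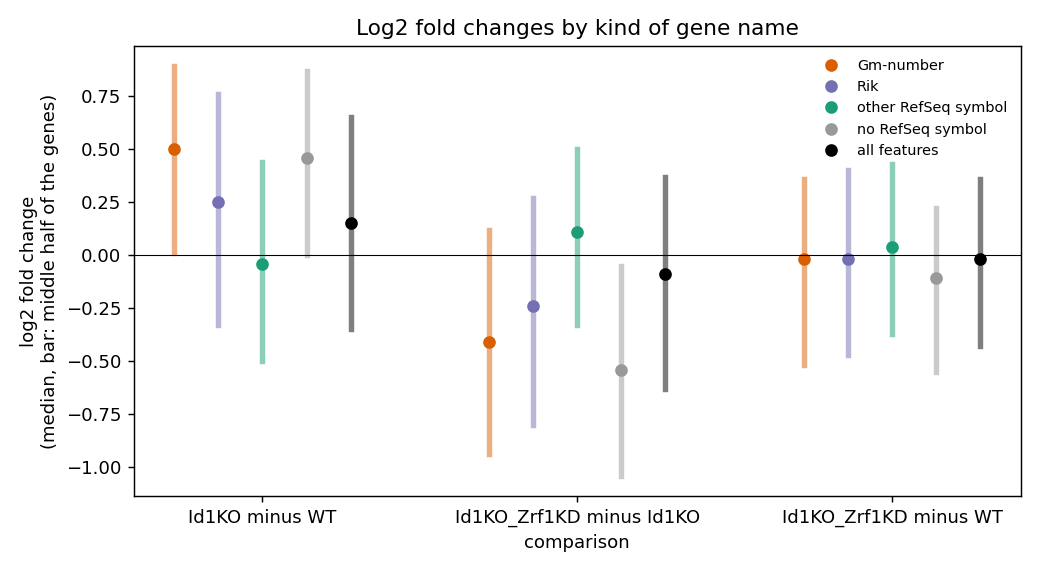
Median log2 fold change (dots) and the middle 50% of the genes (bars) for Gm-number genes, RIKEN (Rik) genes, genes with another RefSeq symbol, features with no RefSeq symbol and all features, in each of the 3 comparisons. Gm-number genes have a median of 0.50 in Id1KO minus WT and -0.41 in Id1KO_Zrf1KD minus Id1KO, and -0.02 in Id1KO_Zrf1KD minus WT.

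With this scaling the shift was present at every brightness. From the dimmest to the brightest of 5 bins of mean level, the median log2 fold change of Gm-number genes in Id1KO against WT was 0.40, 0.52, 0.40, 0.44 and 0.57, while genes with another symbol had medians of 0.09, 0.00, -0.13, -0.08 and 0.04. RIKEN genes had 0.45, 0.21, 0.09, 0.13 and 0.30. In the dimmest bin the median of Gm-number genes was 0.07 with quantile normalization and 0.03 in the deposited values. Each of the 3 slides held all 3 groups, and within slides the median was 0.42, 0.56 and 0.52. The median within slides was -0.43, -0.48 and -0.46 in Id1KO_Zrf1KD against Id1KO.

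The medians of the classes of transcript differed little in Id1KO against WT and more after knockdown. Against WT the median ran from 0.44 for pseudogenes to 0.56 for predicted mRNAs, with 84 of 122 predicted mRNAs higher and 9 lower. Decreases were less even: of 221 curated mRNAs 127 were higher and 47 lower, and of 86 non-coding RNAs 50 and 8. Past 2-fold, 52 curated mRNAs were higher and 27 lower, where each other class had 0 to 4 lower. After knockdown, curated mRNAs had 71 of 221 genes higher and 85 lower, with a median of -0.13, which was 0.09 with quantile normalization. Non-coding RNAs had 10 of 86 higher and 53 lower, with a median of -0.52. Genes known only as Ensembl transcripts had 5 of 66 higher and 40 lower, with a median of -0.73. With quantile normalization the medians of these 2 classes were -0.30 and -0.36, and in the deposited values -0.19 and -0.18. The difference between classes was not tested.

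The eIF1A-like genes of chromosome 12, relatives of the translation initiation factor eIF1A, showed large increases in Id1KO. All 4 tested members of the 12 listed were higher, with log2 fold changes from 3.71 to 4.13. How far their probes read RNA of other members was not tested, so the 4 may not be separate observations. Gm2016 had levels of 3.18, 3.15, 3.20 and 3.23 in WT, 6.84, 6.90, 6.91 and 6.94 in Id1KO and 6.94, 7.02, 7.02 and 7.08 in Id1KO_Zrf1KD. The WT arrays lay far below the other 8, and the 2 mutant groups met at 6.94. The change against WT was 3.71 ± 0.04 (SE; n = 4 per group), or 13.0-fold (adjusted p = 1.9e-13), and that after knockdown was 0.12 (adjusted p = 0.027), which no longer passed without Id1KO replicate 1 (0.10), Id1KO_Zrf1KD replicate 2 (0.11) or replicate 4 (0.09).

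Gm2022 (chr12:89134497-89134556) had levels of 1.92, 1.90, 1.99 and 1.90 in WT, 5.96, 5.94, 5.81 and 6.05 in Id1KO and 6.06, 6.10, 6.13 and 6.14 in Id1KO_Zrf1KD. Its values rose from WT to Id1KO by 4.01 ± 0.05, 16.1-fold (adjusted p = 5.9e-13), and the knockdown arrays lay just above those of Id1KO. Gm8300 (chr12:88858331-88858390) rose by 4.03 ± 0.06 against WT, 16.3-fold (adjusted p = 2e-12), and by a further 0.25 after knockdown (adjusted p = 0.0038). Gm5039, a transcribed pseudogene in RefSeq, had levels of -4.71, -4.64, -3.47 and -3.43 in WT, where 2 of 4 arrays were well above background, and 0.57, 0.57, -0.28 and -0.59 in Id1KO. Its levels in Id1KO_Zrf1KD were -0.22, -0.64, 0.71 and -0.39. The 2 mutant groups overlapped fully, and both lay above WT; the change against WT was 4.13 ± 0.41 (adjusted p = 3.7e-06).

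The PRAME-like genes encode leucine-rich repeat proteins of a family expanded in rodents, and most lie together on chromosome 4. Of 13 listed, 10 were on the array and 7 tested, of which 6 were higher in Id1KO than in WT, with a median of 3.22, and 0 lower. After knockdown 3 of the 7 were higher again, with a median of 0.40. Gm12794 (Pramel19, chr4:101613956-101614015) had levels of -1.97, -2.16, -1.63 and -1.92 in WT, 2.35, 2.51, 2.29 and 2.35 in Id1KO and 2.28, 2.31, 2.41 and 2.39 in Id1KO_Zrf1KD. It rose by 4.29 ± 0.10 in Id1KO, 19.6-fold (adjusted p = 3.6e-11), and the mutant groups overlapped, with a difference of -0.03 (adjusted p = 0.8).

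Gm13043 (chr4:143132296-143132355) stepped up in both comparisons. Its levels were 0.36, 0.29, 0.38 and 0.34 in WT, 3.06, 3.24, 3.10 and 3.09 in Id1KO and 4.19, 4.29, 4.35 and 4.30 in Id1KO_Zrf1KD. No group overlapped another. The change was 2.78 ± 0.05 in Id1KO against WT, 6.88-fold (adjusted p = 7.6e-12), and 1.16 ± 0.05 after knockdown, 2.23-fold (adjusted p = 6.7e-09). Gm13109 (Pramel16) showed the same order, with levels of -2.40, -2.22, -2.46 and -2.57 in WT, 0.81, 0.77, 0.91 and 0.74 in Id1KO and 1.92, 1.72, 1.74 and 1.81 in Id1KO_Zrf1KD. It was 9.33-fold higher in Id1KO than in WT and a further 1.98-fold higher after knockdown (adjusted p = 4.4e-07). Gm13119 (Pramel31) rose 7.12-fold and then 2.19-fold (adjusted p = 4.7e-07). Its probe shares 40 bases with that of Gm13101 (Pramel28), so their values may not be separate observations. The log2 changes were 2.83 and 1.13 for Gm13119 and 3.30 and 0.98 for Gm13101.

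Where a gene was not well above background on any array of a group, the fold is given as a lower limit, from the mean of the brighter group against the higher, on each array, of the dimmest signal among probes well above background and the probe's own. Such limits hold for the probe used and for the processed signal, and are smaller with the normexp background correction or in the deposited values. Gm13078 (Pramel24) had a mean of -5.67 in WT, with 0 of 4 arrays well above background, -1.66 in Id1KO and -1.26 in Id1KO_Zrf1KD. On the probe used it was at least 11-fold higher in Id1KO than in WT (adjusted p = 1.1e-08). Over its 3 tested probes the log2 change in Id1KO against WT ran from 3.30 to 4. Gm13083 (Pramel21) had means of -6.49, -2.45 and -2.06, at least 6.52-fold higher in Id1KO (adjusted p = 2.8e-08). Gm13023 (Pramel25) had a difference of 0.17 (adjusted p = 0.64).

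Of 9 tested genes now named Pramel in RefSeq, on the list or not, 7 were higher in Id1KO than in WT and 1 was lower. The lower gene was not on the list. Gm13128 (Pramel30, chr4:143922992-143923051), which lies near Gm13119, had levels of -0.31, 0.00, -0.37 and -0.25 in WT, -4.05, -4.23, -4.03 and -3.96 in Id1KO, where 1 of 4 arrays was well above background, and -2.53, -2.75, -2.69 and -2.64 in Id1KO_Zrf1KD. The knockdown arrays lay between the other groups with no overlap. Against WT it fell by 3.84 ± 0.09 in Id1KO, 14.3-fold (adjusted p = 3.8e-11), and it rose 2.67-fold after knockdown (adjusted p = 8.2e-08). Its other tested probe also fell in Id1KO, by 3.41. After knockdown that probe rose by 0.63 on the log2 scale, which did not pass the test (limma adjusted p = 0.066).

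Of 6 other tested genes listed for the 2-cell stage, 5 were higher in Id1KO than in WT and 0 lower, with a median of 1.23, which was 0.59 with normexp and 0.40 in the deposited values. After knockdown 3 were higher and 1 lower. Gm4340 (chr10:103633507-103633566) had levels of 1.85, 1.72, 2.07 and 2.02 in WT, 5.38, 5.54, 5.30 and 5.30 in Id1KO and 5.77, 5.77, 6.08 and 5.82 in Id1KO_Zrf1KD. No group overlapped another, and the changes were 11-fold against WT and 0.48 on the log2 scale after knockdown (adjusted p = 0.00089). Gm8994 (Eif4a3l1), a relative of the exon junction helicase gene Eif4a3, rose 1.41-fold in Id1KO (adjusted p = 2.4e-06) and 1.68-fold after knockdown (adjusted p = 9.1e-08). Gm10696 (Spopfm2) had means of -5.80, -1.95 and -0.88 and was well above background on 0 of 4 WT arrays. On the probe used it was at least 8.77-fold higher in Id1KO than in WT (adjusted p = 2e-07). Its other tested probe rose by 1.86 on the log2 scale.

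**Figure D2:**
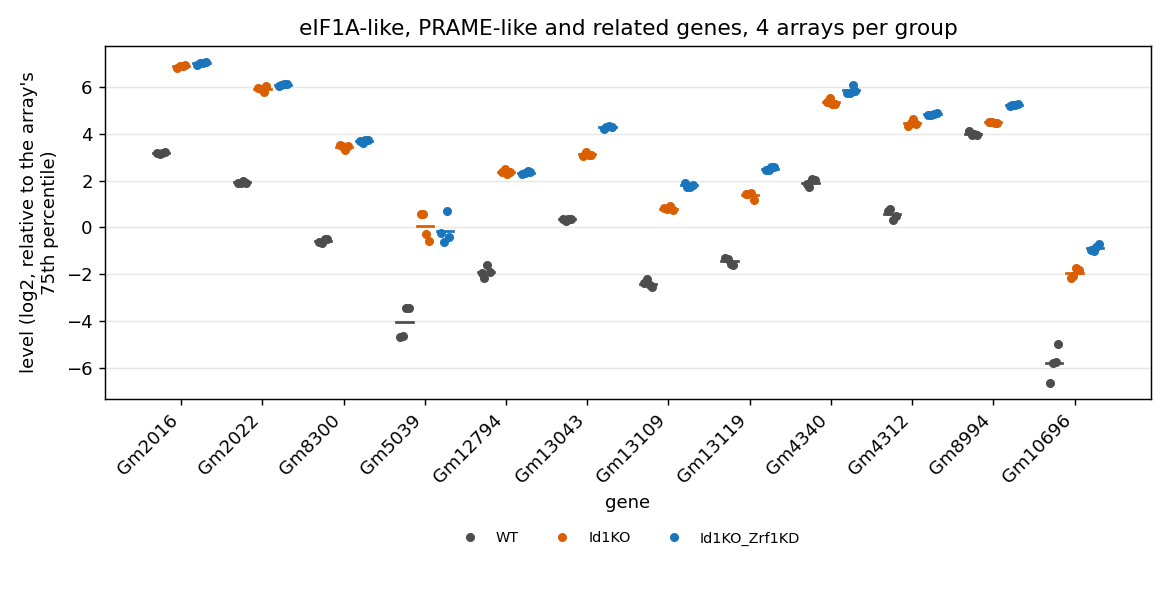
Level of each array (dots; log2, relative to the array's 75th percentile) and the mean of each group (lines) for 12 eIF1A-like, PRAME-like and other genes, 4 arrays per group. The WT arrays of Gm2016, at 3.15 to 3.23, lie below those of Id1KO, at 6.84 to 6.94, and Gm13043 is higher again in Id1KO_Zrf1KD, at 4.19 to 4.35.

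Among Gm-number genes measured in both groups, the highest fold changes of Id1KO_Zrf1KD against WT belonged to 3 genes of chromosome 4, between 73333363 and 73533753. Gm428 had levels of -1.45, -1.37, -1.35 and -1.34 in WT, 2.43, 2.42, 2.50 and 2.48 in Id1KO and 3.71, 3.69, 3.67 and 3.70 in Id1KO_Zrf1KD. Gm11758 had levels of -3.78, -3.88, -3.99 and -4.06 in WT, 0.15, -0.01, 0.17 and 0.02 in Id1KO and 1.35, 1.36, 1.16 and 1.31 in Id1KO_Zrf1KD. For both genes the groups were separate at each step. Against WT, Gm428 was 14.3-fold higher in Id1KO (adjusted p = 8.8e-14) and 33.6-fold higher in Id1KO_Zrf1KD (adjusted p = 1.3e-14). Gm11758 was 16.1-fold and 37.3-fold higher (adjusted p = 7.3e-12 and 7.4e-13), and Gm11757 was 13.9-fold and 35.6-fold higher. Gm7963 of chromosome 5 was 12.2-fold and 22.7-fold higher.

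Genes of the X chromosome were lower in Id1KO. Of 60 tested, 15 were higher and 33 lower than in WT, with a median of -0.55 (-0.28 with normexp), whereas of 572 autosomal Gm-number genes 359 were higher and 61 lower, with a median of 0.53. The 516 X-linked genes with another symbol had 145 higher and 278 lower, with a median of -0.36, so the direction was shared by named genes of the chromosome. After knockdown 23 X-linked Gm-number genes were higher and 22 lower, with a median of 0.02, which was -0.10 with normexp, and against WT 9 were higher and 36 lower in Id1KO_Zrf1KD, with a median of -0.70. The difference between X and autosomes was not tested.

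The lower values came from the first part of the chromosome, in steps of 40 Mb that were chosen after the values were seen. From 0 to 40 Mb, 2 of 22 Gm-number genes were higher and 17 lower in Id1KO than in WT, with a median of -1.33. From 40 to 80 Mb, 2 of 15 were higher and 11 lower, with a median of -1.51. From 80 to 120 Mb the counts were 6 of 13 higher and 2 lower, and from 120 to 160 Mb 5 of 10 higher and 3 lower, with medians of 0.52 and 0.20. Genes with another symbol had medians of -0.92, -0.68, -0.15 and 0.23 over the same steps.

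**Figure D3:**
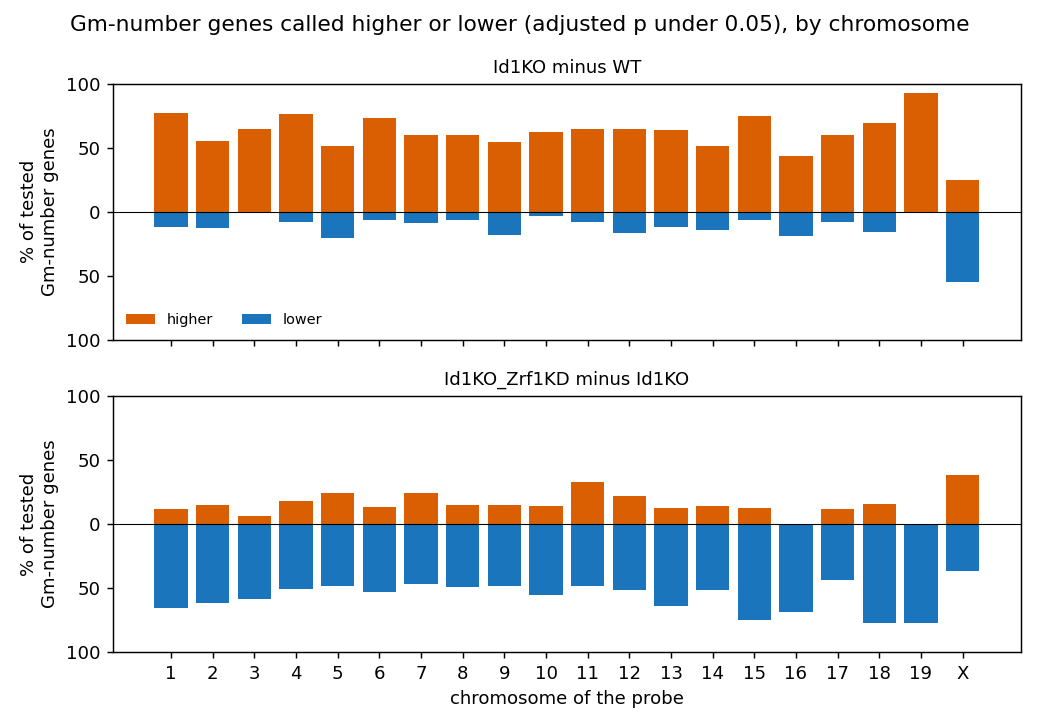
Share of the tested Gm-number genes of each chromosome that were higher (upward bars) or lower (downward bars) at an adjusted p under 0.05, for Id1KO minus WT (top) and Id1KO_Zrf1KD minus Id1KO (bottom). On chromosome X 15 of 60 were higher and 33 lower in Id1KO than in WT, while on chromosome 19 12 of 13 were higher and 0 lower.

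Gm5639 had levels of 3.04, 3.06, 3.15 and 3.10 in WT, -1.47, -1.56, -1.58 and -1.42 in Id1KO and -0.69, -0.75, -0.73 and -0.85 in Id1KO_Zrf1KD. The WT arrays were the highest, and the knockdown arrays lay just above Id1KO. It fell by 4.60 ± 0.05 in Id1KO, 24.2-fold (adjusted p = 1.9e-13), the largest decrease among Gm-number genes measured in both groups, and rose 1.69-fold after knockdown (adjusted p = 1.9e-07). Gm5640 (chrX:71884458-71884517), with the overlapping probe sequence, fell by 4.52 ± 0.06, 23-fold (adjusted p = 4.7e-13), and rose 1.57-fold after knockdown. Its probe is also shared with DXBay18, which fell by 4.84, so these values may have 1 source and are not separate observations.

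Gm2012 had levels of -0.52, -0.62, -0.41 and -0.40 in WT, -2.29, -2.40, -3.15 and -2.44 in Id1KO and -1.56, -1.67, -1.35 and -1.67 in Id1KO_Zrf1KD. The 3 groups were separate, with the knockdown in the middle. It was 4.24-fold lower in Id1KO than in WT, and Gm5168 was 3.30-fold lower; both probes overlap that of Slx, which fell by 1.68 in Id1KO. After knockdown the log2 changes were 1.01 for Gm2012, 0.99 for Gm5168 and 0.93 for Slx. Gm9 (chrX:34749380-34749439) had levels of 2.34, 2.25, 2.43 and 2.34 in WT, -0.37, -0.35, -0.24 and -0.30 in Id1KO and -0.46, -0.31, -0.47 and -0.43 in Id1KO_Zrf1KD. It was 6.30-fold lower in Id1KO than in WT, and the mutant groups overlapped.

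Of 4 tested H2A-like histone genes, named H2al in RefSeq and known from the testis, 0 were higher and 3 lower in Id1KO, with a median of -1.86, which was -0.35 with normexp and -0.55 in the deposited values. The probes of 2 of the 3, Gm14483 (H2al1a) and Gm14484 (H2al1e), share 48 bases, so they are not separate observations. Gm14483 had a mean of -3.26 in WT and -5.13 in Id1KO, well above background on no array there, at least 2.81-fold lower. Gm595 (Fsip2l) had means of -2.57 and -6.04, at least 4.38-fold lower (adjusted p = 1.1e-05), and Gm773 had means of -2.94 and -6.19, at least 3.76-fold lower (adjusted p = 7.9e-07). Gm14458 (Fthl17d) and Gm5635 (Fthl17f), named for ferritin heavy chain-like proteins and picked after their values were seen, fell by 1.79 (adjusted p = 2.4e-09) and by 1.38 (adjusted p = 5.2e-09). A gene outside the X chromosome, Gm9376 (chr14:118666935-118666994), had levels of 4.19, 4.14, 4.36 and 4.24 in WT, 1.32, 1.42, 1.27 and 1.47 in Id1KO and 1.91, 1.98, 2.09 and 1.89 in Id1KO_Zrf1KD. It was 7.25-fold lower in Id1KO than in WT (adjusted p = 4.6e-11), and the groups did not overlap.

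The zinc finger clusters moved less, up in Id1KO and down after knockdown. These are also the directions of autosomal Gm-number genes as a whole, with medians of 0.53 and -0.46. Over all features 42.5% were higher and 29.6% lower in Id1KO than in WT, and 32.3% and 39.8% after knockdown. In Id1KO the median of the chromosome 2 cluster was below that of autosomal Gm-number genes. Of 7 tested genes of the chromosome 2 cluster, 5 were higher and 0 lower in Id1KO than in WT, with a median of 0.44, and 0 were higher and 7 lower after knockdown, with values from -1.02 to -0.41. Of 5 tested in the chromosome 4 cluster, 5 were higher in Id1KO, with a median of 0.88, and 5 lower after knockdown, from -1.25 to -0.78. The call for 1 of them, Gm13251 (Zfp992), at 0.68 against WT (adjusted p = 0.024), no longer passed without WT replicate 1 or 2 or Id1KO replicate 1 or 2 (0.61, 0.56, 0.64 and 0.55).

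Gm13152 (Zfp982, chr4:146887459-146887518) had levels of 2.34, 2.67, 2.52 and 2.58 in WT, 3.99, 4.03, 4.11 and 4.02 in Id1KO and 2.87, 2.92, 2.93 and 2.87 in Id1KO_Zrf1KD. The Id1KO arrays stood above the rest, and the knockdown arrays above WT. It rose 2.85-fold in Id1KO (adjusted p = 4.1e-09) and fell 2.21-fold after knockdown (adjusted p = 4.4e-08). Gm13138 (Rex2) had levels of 7.38, 7.23, 7.45 and 7.24 in WT, 8.02, 8.06, 8.09 and 8.10 in Id1KO and 7.15, 7.19, 7.13 and 7.12 in Id1KO_Zrf1KD. Here the knockdown arrays were the lowest, and the change after knockdown was -0.92 (adjusted p = 5.1e-08). Gm14326 had levels of 4.19, 4.45, 4.37 and 4.59 in WT, 4.84, 5.03, 4.82 and 4.79 in Id1KO and 3.89, 3.86, 4.08 and 3.82 in Id1KO_Zrf1KD. The 3 groups were separate on this probe, and it was 1.94-fold lower after knockdown (adjusted p = 2.7e-06). Over the 5 tested probes of Gm14326, the log2 change after knockdown ran from -1.39 to -0.27. In Id1KO against WT it ran from 0.11, which did not pass the test, to 0.47. The probe used here shares 33 bases with that of LOC100504146. The probe of Gm14308, of the same cluster, shares 31 bases with that LOC100504146 probe, so their values may not be separate observations. Gm14435 (Zfp968-ps) changed by 0.61 and -0.81 and Gm14431 (Zfp967) by 0.44 and -0.97 in Id1KO against WT and after knockdown.

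Copies of ribosomal protein genes, which encode the proteins of the ribosome, had the same signs. All 6 tested genes now named as pseudogenes of large-subunit proteins were higher in Id1KO and lower after knockdown, with medians of 0.78 and -0.82. Of 8 named for small-subunit proteins, 8 were higher in Id1KO and 7 lower after knockdown, with medians of 0.79 and -0.82. With quantile normalization these medians were 0.42 and -0.37 for the former and 0.30 and -0.37 for the latter. The 76 tested ribosomal protein genes themselves had 69 higher and 1 lower in Id1KO, with a median of 0.65, and 1 higher and 72 lower after knockdown, with a median of -0.62; with quantile normalization these medians were 0.14 and -0.13.

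Gm3167 had levels of 7.38, 7.27, 7.39 and 7.34 in WT, 8.31, 8.39, 8.28 and 8.30 in Id1KO and 7.47, 7.43, 7.47 and 7.48 in Id1KO_Zrf1KD. The Id1KO arrays lay apart by nearly a doubling, 1.96-fold above WT (adjusted p = 4e-09). After knockdown it was 1.81-fold lower. The changes were 0.97 and -0.85 for Gm3167 and 0.86 and -0.78 for Rpl35a, whose probe shares the 44 bases shown in capitals. For Gm6109 they were 0.67 and -0.64, and for Rpl30 0.64 and -0.57.

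Such sharing was common. Runs of at least 30 bases shared with a probe of another name were found for 138 Gm-number genes, of which 98 were tested and 40 shared the run with a gene of another symbol. In Id1KO against WT, 29 of these 40 pairs differed by less than 0.2 in log2 fold change and 3 by 1 or more. The pair furthest apart was Gm13552 and Mrps18b, a mitochondrial ribosomal protein gene, with 55 shared bases. Their changes were 0.91 and -2.24 in Id1KO against WT, -0.10 and 3.04 after knockdown, and 0.81 and 0.79 in Id1KO_Zrf1KD against WT. The pair was thus far apart only in the comparisons that use Id1KO. Whether 1 array set the Id1KO mean of Mrps18b was not tested. Gm9706, whose probe shares 35 bases with that of Isg15, an interferon-induced ubiquitin-like protein gene, had 0.56 where Isg15 had 2.76. Gm7676 (chr8:13896764-13896823), with a 54-base run shared with Ifitm1, had 1.05 and -1.54 where Ifitm1 had 1.06 and -1.55 against WT and after knockdown.

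**Figure D4:**
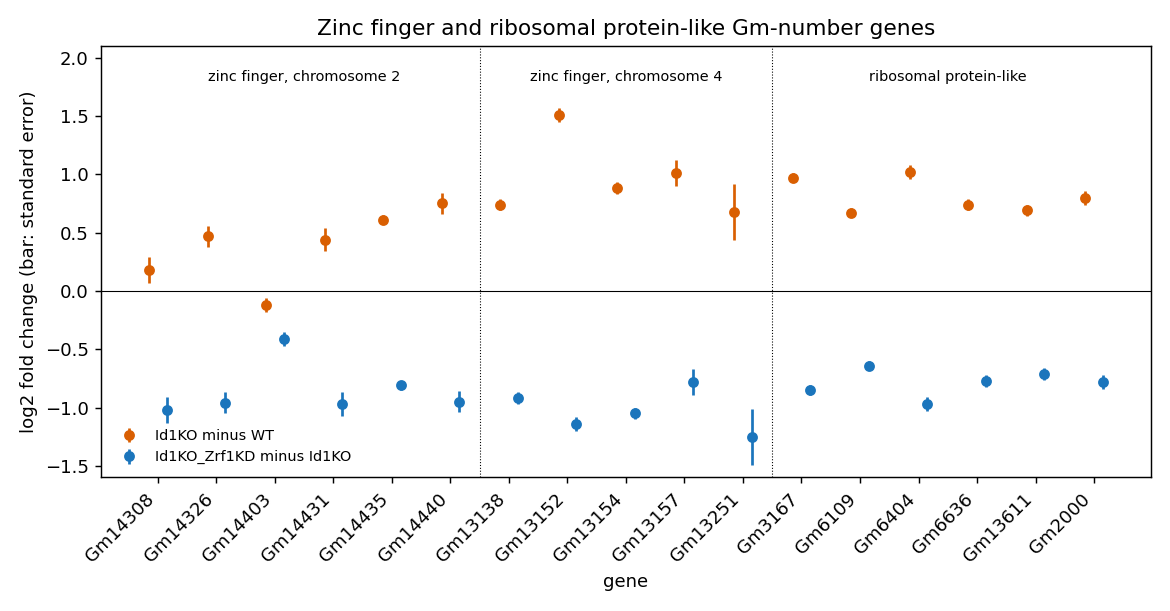
Log2 fold change with its standard error for zinc finger genes of chromosome 2 (left) and 4 (middle) and for 6 of the Gm-number genes that resemble ribosomal protein genes (right), in Id1KO minus WT (orange) and Id1KO_Zrf1KD minus Id1KO (blue). Every blue point of the plotted genes lies below 0, from -0.41 for Gm14403 to -1.25 for Gm13251, and Gm14403 is the only plotted gene with an orange point below 0, at -0.12.

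The 5 brightest Gm-number probes differed in how far they moved. In Id1KO against WT and after knockdown the log2 changes were 0.96 and -1.03 for Gm14958, 0.80 and -0.78 for Gm2000 and 0.74 and -0.77 for Gm6636 (Rps19-ps4), while Gm5921 had 0.12 and -0.14, which did not pass the test (adjusted p = 0.1 and 0.056). Gm885 (Milr1, chr11:106628762-106628821) was at 10 to 10.15 on the Id1KO arrays, against 9.39 to 9.58 for WT and 9.43 to 9.58 for Id1KO_Zrf1KD. The difference of 0.57 on this probe in Id1KO against WT (adjusted p = 3e-06) was -0.02 in the deposited values and 0.02 with quantile normalization. The probe shares 39 bases with that of Exosc2, an RNA exosome gene, at 0.62. Over the 3 tested probes of Gm885 the log2 change ran from 0.57 to 1.34 in Id1KO against WT. After knockdown it ran from -1.05 to -0.41. Gm13215 (chr4:131704578-131704637), a pseudogene, had levels of 7.90, 7.81, 7.88 and 7.86 in WT, 9, 9.04, 8.97 and 9.07 in Id1KO and 7.96, 7.93, 7.90 and 7.93 in Id1KO_Zrf1KD. The Id1KO arrays stood alone, and the gene rose 2.23-fold against WT (adjusted p = 5e-10).

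The genes that rose most after knockdown followed several patterns across the 3 groups. Gm13889 (chr2:93795972-93796031) had levels of 0.14, -0.14, 0.14 and 0.21 in WT, -2.45, -2.50, -2.43 and -2.45 in Id1KO and -0.11, -0.16, -0.07 and -0.26 in Id1KO_Zrf1KD. It was low in Id1KO alone, where it was 5.84-fold below WT (adjusted p = 2.1e-10), and rose 4.95-fold after knockdown (adjusted p = 6.4e-10). Gm949 (Arl14epl) had levels of 4.29, 4.11, 4.34 and 4.30 in WT, 2.09, 2.44, 2.19 and 2.24 in Id1KO and 3.93, 4.04, 4.14 and 4.03 in Id1KO_Zrf1KD. It too was lowest in Id1KO, and rose 3.48-fold after knockdown (adjusted p = 8e-09).

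Gm8801 (chr17:36089682-36089741), a transcribed pseudogene, had levels of 2.34, 2.46, 2.24 and 2.23 in WT, 2.47, 2.44, 2.65 and 2.42 in Id1KO and 4.84, 4.87, 4.68 and 4.74 in Id1KO_Zrf1KD. WT and Id1KO overlapped, and the knockdown arrays stood alone, 4.89-fold above Id1KO (adjusted p = 6.1e-10). Gm2115 (chr7:91726788-91726847) had levels of -3.88, -3.71, -3.05 and -3.14 in WT, -2.36, -2.64, -2.46 and -2.55 in Id1KO and -0.12, -0.30, -0.24 and -0.21 in Id1KO_Zrf1KD. It rose at both steps, by 0.94 and then 2.28 on the log2 scale (adjusted p = 2.9e-07 for the latter). Gm1966, of the family of very large interferon-inducible GTPases, had means of -6.34, -5.39 and -2.50 and was well above background only in Id1KO_Zrf1KD, at least 5-fold above Id1KO (adjusted p = 2.1e-05). Of the interferon-inducible genes listed, 2 were tested, and the other, Gm5431, fell 2.36-fold after knockdown (adjusted p = 1.5e-06). The summed level of the fibroblast markers, given above, was also highest in Id1KO_Zrf1KD.

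Among the genes that fell most after knockdown, several are known only as cDNAs or Ensembl transcripts. Gm3556 (chr9:22271265-22271324) had levels of -0.77, -0.91, -0.72 and -0.72 in WT, -0.63, -0.55, -0.60 and -0.57 in Id1KO and -4.01, -3.46, -3.35 and -3.37 in Id1KO_Zrf1KD. WT and Id1KO lay close together, and the knockdown arrays lay far below both, 7.79-fold under Id1KO (adjusted p = 5.2e-09). Gm7967 (chr1:100490826-100490885), a lncRNA, had levels of -0.45, -0.38, -0.52 and -0.50 in WT, 0.16, 0.20, 0.31 and 0.28 in Id1KO and -1.96, -2.25, -2.31 and -2.39 in Id1KO_Zrf1KD. The groups were separate, and it fell 5.52-fold after knockdown (adjusted p = 9.3e-10).

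Gm3613 (chr12:4482263-4482322), a non-coding RNA, had levels of -0.48, -0.38, -0.29 and -0.41 in WT, 0.20, 0.19, 0.23 and 0.24 in Id1KO and -2, -1.97, -2.03 and -2 in Id1KO_Zrf1KD. The spread within groups was small beside the decrease of 4.64-fold after knockdown (adjusted p = 2.8e-11). Gm7420 of chromosome 5 was at -2.27 to -2.05 in Id1KO and at -5.57 to -4.79 in Id1KO_Zrf1KD, where 1 of 4 arrays was well above background, 8.28-fold lower (adjusted p = 1.1e-08). Gm10050 of chromosome 15 had means of -2.88, -1.99 and -5.60 and was well above background on no knockdown array, at least 7.67-fold lower than in Id1KO (adjusted p = 1.2e-07). Gm5091 (chr17:15368566-15368625), a lncRNA, was lowest in Id1KO_Zrf1KD, at 1.27 to 1.35, against 2.81 to 2.94 for Id1KO and 3.11 to 3.43 for WT. It fell at both steps, by 0.37 and then by 1.56.

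**Figure D5:**
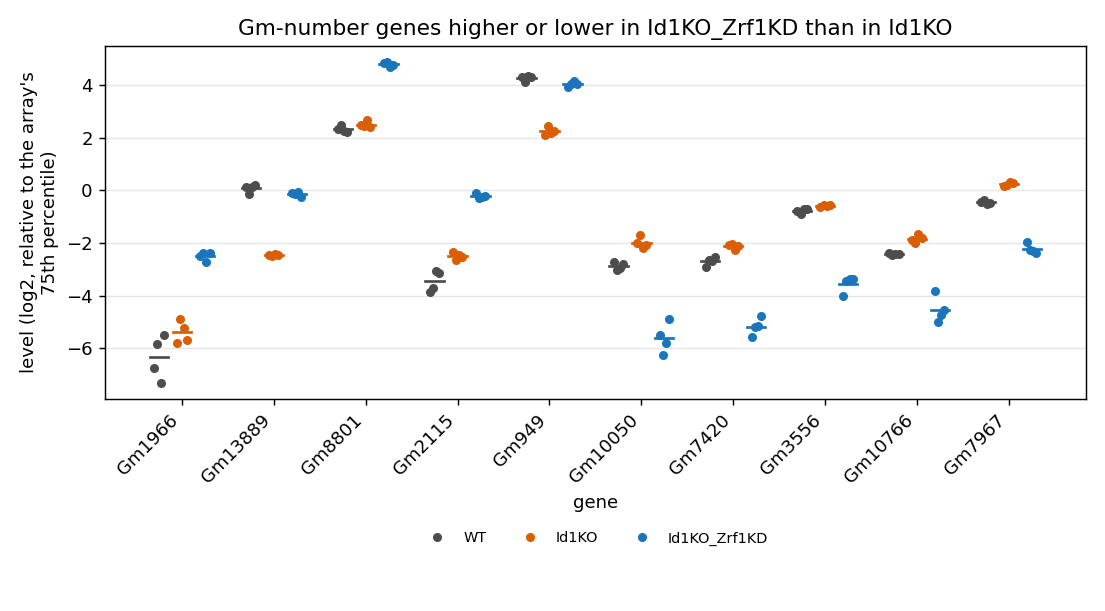
Level of each array (dots; log2, relative to the array's 75th percentile) and the mean of each group (lines) for 10 Gm-number genes that were higher or lower in Id1KO_Zrf1KD than in Id1KO, 4 arrays per group. Gm8801 is high in Id1KO_Zrf1KD alone, at 4.68 to 4.87, while Gm13889 is low in Id1KO alone, at -2.50 to -2.43.

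With neighbours joined over gaps of at most 200 kb between probe starts, 10 groups of at least 4 tested genes were found, and their members moved together in some and apart in others. In chr11:60444686-60734668, 1 of 4 genes was higher and 2 lower in Id1KO than in WT, with changes from -0.29 to 0.84, and in chr9:98757580-98907443 2 of 4 were higher and 1 lower, with changes from -0.95 to 1.82. The group of chr12:88858331-89559693, which holds the eIF1A-like genes, had 9 genes, of which 7 were higher and 2 lower in Id1KO than in WT, with a median of 2.42. In chr8:22234705-22676056, 6 genes now named as defensins (Defa), whose products are antimicrobial peptides of the gut, were higher in Id1KO, with changes from 0.64 to 2.44 and a median of 2.01, which was 0.95 with normexp and 0.68 in the deposited values. Gm15292 (Defa40) was at -0.60 to -0.34 in Id1KO and -0.49 to -0.32 in Id1KO_Zrf1KD, with WT at -2.73 to -2.67, 4.71-fold above WT in Id1KO (adjusted p = 1.4e-10), and the mutant groups overlapped.

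In chr11:94616520-94706577, 3 of 4 genes were higher in Id1KO and all 4 higher after knockdown, with medians of 1.90 and 1.62. Gm11543 of that group had levels of -2.93, -3.26, -3.02 and -3.30 in WT, -0.61, -0.53, -0.59 and -0.63 in Id1KO and 1.10, 1.16, 1.06 and 1.09 in Id1KO_Zrf1KD. Each step separated the groups, with folds of 5.79 and 3.23. In chr14:7838959-8156787, 4 of 4 were higher in Id1KO and 4 of 4 lower after knockdown, with medians of 0.76 and -1.31. Gm16525 of that group had levels of 3.41, 3.28, 3.36 and 3.35 in WT, 4.19, 4.23, 4.23 and 4.18 in Id1KO and 2.36, 2.44, 2.44 and 2.44 in Id1KO_Zrf1KD. Here the knockdown arrays were the lowest of all, 3.46-fold under Id1KO (adjusted p = 5.9e-11).

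For 94 tested genes with several probes above background, the probes of a gene differed in log2 fold change by a median of 0.22 in Id1KO against WT and 0.20 after knockdown. They gave opposite calls for 2 genes and 1 gene respectively, and differed by at least 1 for 9 genes in each. Gm5132 (H2al1o) had -0.24 and -2.28 on its 2 extreme probes, and Gm10696 had 3.85 and 1.86, in Id1KO against WT.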

How the data were processed

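RNA of 12 samples was hybridised to 1-colour Agilent arrays on 3 slides. The scanner files hold the authors' processed intensity, per the file headers from Feature Extraction 10.7.3.1 with probe coordinates of mm9 (NCBI37); the deposited table holds log2 values with the same median in each column, whose normalization no label or header describes. Levels were log2 of the processed intensity minus the array's 75th percentile of it. Outlier spots were left out, 108 to 302 per array, and no spot was saturated. The brightest kept probe stood for a gene. Groups were compared with limma 3.58.1 (R 4.3.3), with 1 mean per group and Benjamini-Hochberg adjustment over 22590 features, tested on simulated data. RefSeq symbols and biotypes come from GRCm38.p6, without coordinates.

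The members, gene lists and tests were chosen with earlier results of these data known. Genes were named by a rule. For each comparison it took the 6 highest and 6 lowest called genes of at least 2-fold and the 4 largest lower limits each way. It added up to 4 genes of each list, 2 of each class and of the X chromosome, the 5 brightest and the 3 whose probes differ most. Gm885's partner, families by RefSeq symbol, members of neighbour groups, Gm13128's place beside the list, Gm2012, Gm5168, Gm14458, Gm5635, Gm9706, Gm13552 and the ribosomal copies were added after values were seen. Alternatives were quantile normalization, normexp, the deposited values, other filters on dim probes, the mean over probes, blocks and leaving out each array. The number of arrays limits the precision.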

Additional observations from a re-analysis of the deposited data

Results flagged for a closer look

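For the 93 genes named by the rule, 279 groups of 4 levels were examined for an array that stood apart from the other 3; the gap to the nearest, as a share of the range, was set against the 95% critical value of Dixon. Such a gap was found in 10 groups, and chance gives about 1 in 20.

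In Id1KO_Zrf1KD, replicate 3 was at -0.99 for Gm11595, where the others were at -0.77 to -0.73, at 0.30 for Gm14308, where they were at 0.02 to 0.05, and at 6.08 for Gm4340, where they were at 5.77 to 5.82. Replicate 1 of that group was at 2.36 for Gm16525, with the others at 2.44, and at -4.01 for Gm3556, with the others at -3.46 to -3.35. In Id1KO, replicate 1 was at 8.77 for Gm4963, with the others at 8.90 to 8.92, at 5.74 for Gm7676, with the others at 5.68 to 5.69, and at -5.55 for the dim gene Gm6422, with the others at -4.58 to -4.50. Replicate 3 was at 9.68 for Gm5921, with the others at 9.49 to 9.50, and replicate 4 was at 1.16 for Gm13119, with the others at 1.44 to 1.46.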

How the results depend on the processing

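In Id1KO against WT and after knockdown, the direction of the shift of Gm-number genes held under every scaling and filter tried, and its size did not. The median of Gm-number genes minus that of all features was 0.35 in Id1KO against WT. It was 0.23 with quantile normalization, 0.23 with normexp, 0.16 in the deposited values and 0.14 with no filter on dim probes. After knockdown it was -0.32, and -0.17, -0.22, -0.11 and -0.14 under the same settings, and -0.39 with only probes above background on all 12 arrays. Counts of genes past 2-fold were smaller by over 1.5 times with normexp, in the deposited values and, for 4 of 6 counts, with that filter. In Id1KO against WT, 123 became 60 with normexp and 51 in the deposited values, and 39 lower became 20, 24 and, with the filter, 25. After knockdown, 38 higher became 15, 16 and 21, and 133 lower became 61 and 61. Against WT, 81 higher in Id1KO_Zrf1KD became 45, 46 and 44, and 83 lower became 27, 26 and 47. With no filter 568 genes were higher in Id1KO than in WT and 575 lower after knockdown. The filter leaves fewer genes tested; the cause of the other changes was not tested.

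Leaving out 1 array gave 358 to 378 higher and 83 to 96 lower in Id1KO, 109 to 119 and 321 to 345 after knockdown, and 175 to 192 and 185 to 201 in Id1KO_Zrf1KD against WT. Past 2-fold it gave 121 to 132 and 38 to 42, 36 to 40 and 127 to 142, and 80 to 84 and 77 to 84. The medians against all features were 0.33 to 0.36, -0.37 to -0.32 and -0.02 to 0.01.

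Replicate numbers did not pair the samples: deviations of same-numbered arrays correlated at a median of -0.20 (-0.44 to 0.40 over 12 pairs), and 1 of 12 arrays was closest to its own number. With the replicate number as a block, 359 genes were higher and 90 lower in Id1KO, 114 and 320 after knockdown, and 183 and 188 against WT. For named genes, 298 results gave 5886 values, of which 5772 kept direction and side of the threshold, 110 no longer passed and 4 reversed. Those were Gm885 in Id1KO against WT in the deposited values (-0.02), and after knockdown Gm5132 in the deposited values (0.00) and, with normexp, Gm595 (-0.11) and Gm773 (-0.09).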

Other observations

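Further groups of neighbours were higher in Id1KO. In chr11:99481336-99726194, all 5 tested genes (Gm11937, Gm11595, Gm11554, Gm11564 and Gm11559) were higher than in WT, with a median log2 fold change of 1.90. After knockdown 4 were higher again, among them Gm11595 at 0.33 (limma adjusted p = 0.026). That call no longer passed without Id1KO replicate 1 (0.25) or 2 (0.28). The same held without Id1KO_Zrf1KD replicate 1 (0.31), 2 (0.30) or 4 (0.31). Gm11554 had means of -5.58, -1.49 and -0.66 in WT, Id1KO and Id1KO_Zrf1KD and was well above background on 0 of 4 WT arrays, at least 12.3-fold higher in Id1KO than in WT (limma adjusted p = 1.7e-07). In chr4:88401261-88441138, all 4 (Gm13271, Gm13284, Gm13272 and Gm13275) were higher in Id1KO, with a median of 1.78, and after knockdown 0 passed the test in either direction, with a median of -0.27.

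Gm4802 of chromosome 16, picked after its values were seen, was at 8, 7.99, 7.87 and 7.96 in WT, at 8.39, 8.46 and 8.49 on 3 Id1KO arrays and at 7.75, 7.74, 7.64 and 7.80 in Id1KO_Zrf1KD. On Id1KO replicate 3 it was at -4.28. Its difference in Id1KO against WT was -2.69 (limma adjusted p = 0.33).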
